A study of Homo sapiens with 5 samples.

Results

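The genes described are 8 members of the cholesterol pathway, *HMGCS1*, *IDI1*, *FDPS*, *FDFT1*, *SQLE*, *LSS*, *DHCR7*, and *INSIG1*. They were picked by symbol out of the 27328 Ensembl genes of the count table, and all 8 were found and had enough counts to be tested. With edgeR, the main test, 0 of the 8 met the rule for differential expression in *MTSS1* knockout pools, against 5.18% of all tested genes. DESeq2, the program used in the study, called 2 of them here, and 9.49% of the genes to which it gave an adjusted p-value. The largest differences were those of *HMGCS1*, at the start of the pathway, and *INSIG1*, a sterol sensor. Both were more abundant in every knockout pool than in either control pool, as were 22.2% of all tested genes. Of 48 further pathway genes tested, 2 rose in the knockout, the late enzyme *EBP* and the sterol sensor *SCAP*, a share equal to that of all tested genes called higher (4.17%). The call of *EBP* was lost when any 1 knockout pool was left out. In those fits the share of all genes called fell from 5.18% to between 0.831% and 2.59%.

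All libraries came from TF-1, a human erythroid and myeloid leukemia cell line, made to express Cas9 with GFP by lentivirus and given an sgRNA. The 2 control pools carried sgCtrl, directed at the *renilla luciferase* gene of the sea pansy, and the 3 knockout pools carried sgMTSS1_1, sgMTSS1_2, or sgMTSS1_3, here called knockout pools 1, 2, and 3. Each pool was mixed from 4 single-cell clones, and no sgRNA was used in more than 1 knockout pool, with loss of the protein checked by immunoblot in the study. The authors left a further control pool and the sgMTSS1_4 pool out after an outlier test, and those pools were not analysed here. *MTSS1* encodes an adaptor protein that binds membranes and actin.

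Total counts were 2849979 and 3408827 in the control and between 5442639 and 8854899 in the knockout libraries. Every knockout library was thus deeper than either control library. Mitochondrially encoded genes took 8.63% to 13.9% of the counts in control and 6.71% to 7.44% in knockout libraries, and genes with *RPL* and *RPS* symbols 7.55% to 9.3% and 11.9% to 17.7%. The part of these shares in the differences described here was not tested. The mRNA of *MTSS1* itself was at 204 and 87.9 CPM in the control pools and at 104, 139, and 49.9 CPM in knockout pools 1, 2, and 3. The groups overlapped (log2-fold change −0.58, standard error 0.47, adjusted p = 0.494 from edgeR), so *MTSS1* mRNA did not check the labels. Its 3′ end lies within *NDUFB9* on the opposite strand. CPM is the count divided by the TMM-normalized library size, on the usual counts-per-million scale. All 11 markers of the TF-1 line's progenitor type, among them *CD34*, *KIT*, and *GATA1*, had counts in every library. Summed over the list, they were at 842 to 973 CPM in control and 878 to 1144 CPM in knockout pools. The 4 fibroblast markers in the table summed to at most 1.49 CPM in any library. The 3 T cell markers summed to 0.313 to 2.09 CPM in control and 0.722 to 5.92 CPM in knockout pools. The sums of the 2 B cell markers were 7.82 to 11.6 CPM in control and 3.24 to 4.15 CPM in knockout pools.

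Cells make cholesterol from acetyl-CoA through mevalonate, isoprenoids, squalene, and lanosterol. The transcription factor SREBP-2, product of *SREBF2*, activates most genes of the pathway. When sterols are plentiful, INSIG proteins hold the SREBP escort protein SCAP in the endoplasmic reticulum, and when sterols are scarce SCAP carries SREBP to the Golgi, where it is cleaved to its active form. *INSIG1* is itself an SREBP target, so that it acts as a feedback inhibitor. Rapidly growing leukemia cells are known to draw on both synthesis and uptake of cholesterol.

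Sequences before the start site are shown for *HMGCS1* and *INSIG1*, the members with the largest differences, and for *EBP*, which rose. Each runs 5′ to 3′ over the 250 bases before a RefSeq start in GRCh38.p14. For *HMGCS1* these are chr5:43313413-43313662 on the minus strand, for *INSIG1* chr7:155297628-155297877 on the plus strand, and for *EBP* chrX:48521558-48521807 on the plus strand. Capitals mark CCAAT, which NF-Y binds, on either strand (ATTGG on the strand shown), and the E-box palindrome TCACGTGA.
HMGCS1: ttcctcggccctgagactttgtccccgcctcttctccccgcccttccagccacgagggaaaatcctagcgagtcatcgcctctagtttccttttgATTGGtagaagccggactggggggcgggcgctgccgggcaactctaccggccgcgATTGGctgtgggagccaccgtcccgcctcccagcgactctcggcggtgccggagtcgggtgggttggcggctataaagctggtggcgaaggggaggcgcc
INSIG1: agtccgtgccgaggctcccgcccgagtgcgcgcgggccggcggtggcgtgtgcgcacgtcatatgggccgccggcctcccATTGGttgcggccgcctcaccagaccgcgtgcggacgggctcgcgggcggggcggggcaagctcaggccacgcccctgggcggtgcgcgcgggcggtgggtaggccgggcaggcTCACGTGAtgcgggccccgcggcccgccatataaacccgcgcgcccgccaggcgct
EBP: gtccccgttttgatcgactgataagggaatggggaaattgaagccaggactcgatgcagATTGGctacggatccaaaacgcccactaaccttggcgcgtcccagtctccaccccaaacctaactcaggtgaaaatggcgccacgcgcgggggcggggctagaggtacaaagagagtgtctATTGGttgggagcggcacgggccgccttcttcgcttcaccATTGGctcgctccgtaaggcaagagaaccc

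NF-Y is a known partner of SREBP at sterol-regulated promoters. CCAAT was found on either strand at 155 and 100 bases before the shown start of *HMGCS1*, at 170 bases before that of *INSIG1*, and at 191, 70, and 30 bases before that of *EBP*. The window of the second *HMGCS1* start in the table, which is not shown, held no CCAAT. TCACGTGA stood 56 bases before the RefSeq start of *INSIG1*. The GENCODE spans of *HMGCS1*, *INSIG1*, and *EBP* begin within the windows shown. Part of each window, with the TCACGTGA of *INSIG1*, thus lies inside the gene by that annotation. Of the 8 members, 6 were searched, with 10 windows in all, since some have several start sites. *SQLE* and *FDFT1*, both on chromosome 8, were not searched. CCAAT was in 7 of these 10 windows and in at least 1 window of each of the 6 members. Among all 35116 windows of the same length, 32.0% held CCAAT and 0.854% held TCACGTGA. A sterol regulatory element in the form TCACNCCAC, searched on both strands, was in none of the 10 windows and in 0.883% of all windows. The window of *SCAP*, which also rose, is not shown and held none of these motifs. All hits are matches of letters and not measured binding sites. No sequence is shown for *SQLE* and *FDFT1*.

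The question was whether loss of *MTSS1* went along with a change of the sterol pathway. A gene was called differentially expressed when edgeR's quasi-likelihood test gave it an adjusted p-value (Benjamini-Hochberg, all tested genes) under 0.05 and its levels differed by more than 1 on the log2 scale. Of the 14391 tested genes, 745 (5.18%) met this rule, with 600 (4.17%) higher in knockout pools and 145 (1.01%) higher in control pools. Of the 8 members, 0 met it, while 2 had an unadjusted p-value under 0.05, reached by 23.3% of all tested genes. Of the members, DESeq2 called 2 (*HMGCS1* and *INSIG1*), where it called 9.49% of the 13552 genes to which it gave an adjusted p-value. Limma-voom called 1 member (*HMGCS1*) and 4.41% of all tested genes. Every knockout pool was above both control pools for 3 members and below both for 1, where these patterns were shown by 22.2% and 19.2% of all tested genes. The median log2-fold change was 0.14 over the 8 members and −0.03 over all tested genes. Of all counts, the members together made up 0.077% (0.0738 to 0.0803, 95% Wilson interval) in control library 1 and 0.054% (0.0516 to 0.0565) in control library 2. The shares in knockout libraries 1, 2, and 3 were 0.0692%, 0.0868%, and 0.0705%. In normalized units, the sum over the members was 617 ± 97.1 CPM (SD, n = 2) for the control group and 786 ± 71.2 CPM (SD, n = 3) for the knockout group. Within this sum, the means of *HMGCS1* (67.0 to 168 CPM) and *INSIG1* (58.7 to 128 CPM) rose most. Those of *SQLE* (233 to 194 CPM) and *IDI1* (51.8 to 40.8 CPM) fell.

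**Figure D1:**
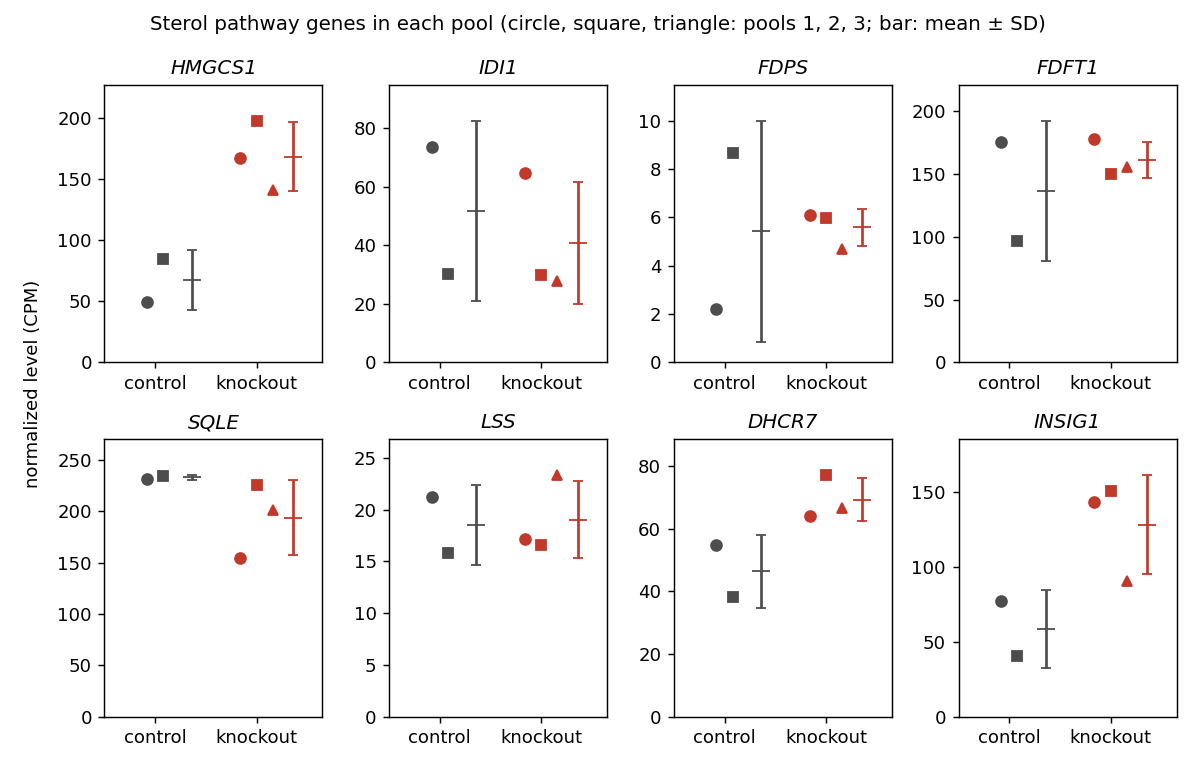
Normalized level in CPM (y axis, from 0, own scale per gene) of each of the 8 genes in the 2 control pools (grey) and the 3 knockout pools (red). Circles, squares, and triangles are pools 1, 2, and 3, and the bars beside them are the mean and SD. *HMGCS1*, *DHCR7*, and *INSIG1* have all knockout pools above both control pools, *SQLE* has all of them below, and the other 4 genes overlap.

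*HMGCS1* encodes the cytosolic HMG-CoA synthase, which condenses acetyl-CoA with acetoacetyl-CoA. It was at 49.7 and 84.3 CPM in control pools 1 and 2 and at 167, 197, and 141 CPM in knockout pools 1, 2, and 3. The lowest knockout pool was 1.67 times the higher control pool. The means were 67.0 ± 24.5 CPM (SD, n = 2) and 168 ± 28.2 CPM (SD, n = 3), a log2-fold change of 1.33 (standard error 0.34, 95% interval 0.56 to 2.097), that is 2.51-fold. The unadjusted p-value was 0.0034 and the adjusted 0.0556 in edgeR, just over the threshold, and over the alternatives the adjusted p-value ran from 0.00661 to 0.156. *HMGCS1* met the rule under 5 of 13 alternatives, among them DESeq2 (adjusted p = 0.00661), limma-voom (0.0488), no filter on low counts in edgeR (0.0158), and control pool 2 left out (0.0263). Its difference was 1.01 with control pool 1 left out and 1.79 with control pool 2 left out. With all libraries randomly thinned to the smallest total, it was 1.27 (adjusted p = 0.0599 from edgeR). The gene (ENSG00000112972, chromosome 5, 43287470 to 43313512 of GRCh38, minus strand) overlaps no other gene of the table.

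*IDI1* and *FDPS* act on the isoprenoid intermediates, as the isomerase of isopentenyl diphosphate and the synthase of farnesyl diphosphate. *IDI1* was at 73.5 and 30.1 CPM in control and at 64.7, 29.8, and 27.8 CPM in knockout pools. Pool 1 was thus the high one in either group, at over 2 times the others, and the groups overlapped (log2-fold change −0.34, 95% interval −1.41 to 0.73, adjusted p = 0.715 from edgeR). *FDPS* had few counts, from 7 in control library 1 to 47 in knockout library 1, or 2.19 and 8.64 CPM in control and 6.10, 5.96, and 4.70 CPM in knockout pools. The control pools differed by 3.95 times and enclosed all knockout pools (log2-fold change 0.04, 95% interval −1.22 to 1.30, adjusted p = 0.975 from edgeR). With control pool 1 left out the difference of *FDPS* was −0.61, and with control pool 2 left out it was 1.37. The direction of *IDI1* likewise turned to 0.46 with control pool 1 left out.

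Counts of this pair, above all those of *FDPS*, are uncertain for reasons of annotation. GENCODE names 8 pseudogenes after *FDPS* and 3 after *IDI1*, and reads that mapped to several places were removed by the authors. The 2 *FDPS* pseudogenes in the table held 28 counts between them over the 5 libraries, against 143 for *FDPS*. The 1 *IDI1* pseudogene in the table held 8 counts against 1160 for *IDI1*. On GRCh38, *IDI1* (ENSG00000067064) spans 1039152 to 1049119 of chromosome 10, minus strand, and *FDPS* (ENSG00000160752) spans 155308748 to 155320666 of chromosome 1, plus strand. The 3′ end of *FDPS* lies within *RUSC1-AS1* on the opposite strand, which had 19 and 40 counts in control and 33, 24, and 19 in knockout libraries, and that of *IDI1* lies within *IDI2-AS1*, which had 7 and 12 counts in control and 37, 24, and 6 in knockout libraries. Whether strand was used in counting is not given in the sources used here.

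*FDFT1* and *SQLE* encode squalene synthase and squalene monooxygenase, the first committed step toward sterols and a rate-limiting step. *SQLE* was the most abundant of the 8 genes in either group, at 232 and 235 CPM in control and at 154, 226, and 202 CPM in knockout pools. Every knockout pool was below both control pools, but knockout pool 2 only slightly, with the lower control pool at 1.03 times its level. *SQLE* differed by −0.27 on the log2 scale (95% interval −0.93 to 0.40, adjusted p = 0.639 from edgeR). *SQLE* lies on the same chromosome arm as *MTSS1*, with a gap of 270.0 kb between the genes (chromosome 8, *SQLE*, ENSG00000104549, 124998497 to 125022283, *MTSS1* 124550784 to 124728473). *FDFT1* was at 176 and 96.9 CPM in control and at 178, 150, and 156 CPM in knockout pools. The spread of its control pools contained the knockout pools except pool 1 (log2-fold change 0.24, 95% interval −0.50 to 0.98, adjusted p = 0.707 from edgeR). The gene (ENSG00000079459) spans 11795573 to 11839395 of chromosome 8. Without control pool 1, the difference of *FDFT1* was 0.75, and without control pool 2 it was −0.10.

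*LSS* and *DHCR7* act on the sterol ring, as lanosterol synthase, which closes it, and as the reductase of a last step. *LSS* was at 21.3 and 15.8 CPM in control and at 17.1, 16.6, and 23.3 CPM in knockout pools, with overlapping groups (log2-fold change 0.04, 95% interval −0.72 to 0.80, adjusted p = 0.964 from edgeR). *DHCR7* was at 54.7 and 38.1 CPM in control and at 64.1, 77.1, and 66.8 CPM in knockout pools. All knockout pools were above both control pools, the lowest by 1.17 times. The log2-fold change of *DHCR7* was 0.58 (95% interval −0.10 to 1.26), which did not pass (adjusted p = 0.290 from edgeR, 0.125 to 0.513 over the alternatives). *LSS* (ENSG00000160285) spans 46188141 to 46228824 of chromosome 21, minus strand, and *DHCR7* (ENSG00000172893) spans 71428193 to 71452868 of chromosome 11, minus strand.

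*INSIG1*, which retains SCAP in the endoplasmic reticulum, was at 77.2 and 40.2 CPM in control and at 144, 151, and 90.3 CPM in knockout pools. Knockout pool 3 stood 1.17 times above the higher control pool, and knockout pools 1 and 2 clearly higher. The means were 58.7 ± 26.2 CPM (SD, n = 2) and 128 ± 33.0 CPM (SD, n = 3). The log2-fold change was 1.13 (standard error 0.38, 95% interval 0.27 to 1.99), that is 2.18-fold, with an unadjusted p-value of 0.0155 and an adjusted one of 0.118 in edgeR. Over the alternatives the adjusted p-value of *INSIG1* ran from 0.0288 (replicate block, resting on pools 1 and 2) to 0.267. It met the rule under 3 of 13 alternatives, among them DESeq2 (adjusted p = 0.0456) and control pool 1 left out (log2-fold change 1.68, adjusted p = 0.0389 from edgeR), whereas with control pool 2 left out the difference was 0.76. The gene (ENSG00000186480) spans 155297776 to 155310235 of chromosome 7, plus strand.

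**Figure D2:**
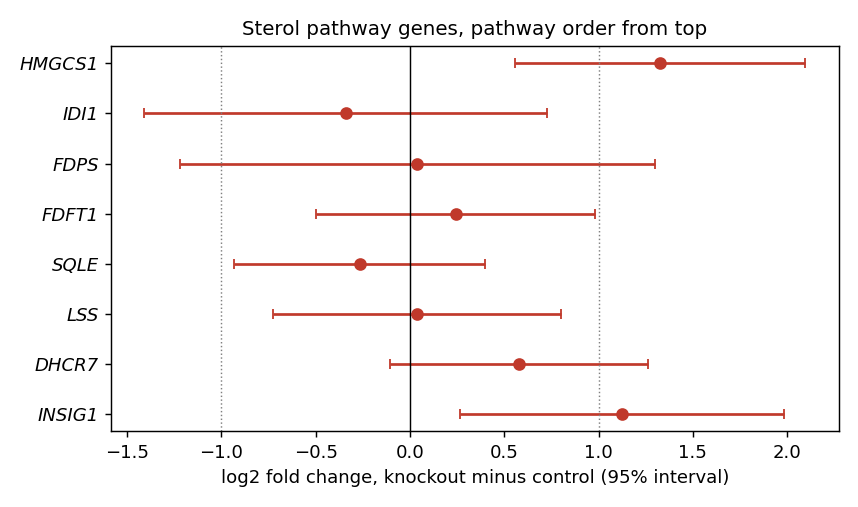
Log2-fold change, knockout minus control, of each of the 8 genes (x axis, points) with its 95% interval (bars) from edgeR, in pathway order from top to bottom. Dotted lines mark −1 and 1. The intervals of *HMGCS1* (0.56 to 2.097) and *INSIG1* (0.27 to 1.99) lie above 0, and those of the other 6 include 0.

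QuantSeq reads come from the 3′ end of transcripts, so their number does not grow with transcript length. Levels of different genes are set side by side here on that ground alone. The annotation and use of strand in counting are not known, so the order is approximate. Counts of *IDI1* and *FDPS* are uncertain as described above. By mean level in control pools the order was *SQLE* (233 CPM), *FDFT1* (136), *HMGCS1* (67.0), *INSIG1* (58.7), *IDI1* (51.8), *DHCR7* (46.4), *LSS* (18.5), and *FDPS* (5.42). The 4 genes from *HMGCS1* to *DHCR7* overlapped in their control pools, and the others stood apart. In knockout pools the order was *SQLE* (194 CPM), *HMGCS1* (168), *FDFT1* (161), *INSIG1* (128), *DHCR7* (69.3), *IDI1* (40.8), *LSS* (19.0), and *FDPS* (5.58), where neighbours overlapped among the first 4 and between *DHCR7* and *IDI1*. *HMGCS1* thus moved from rank 3 to rank 2 and *DHCR7* from rank 6 to rank 5. Within the control group, the higher pool exceeded the lower by 1.01 times for *SQLE* and by 3.95 times for *FDPS*. Among knockout pools the ratio of highest to lowest ran from 1.18 for *FDFT1* to 2.33 for *IDI1*.

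Likeness was measured as the root mean square difference between log2 CPM profiles over the 5 libraries, each centred on its own mean. Among the other 55 tested genes of the pathway, members included, the nearest to *HMGCS1* was *EBP* (0.35) and the nearest to *INSIG1* was *FNTA* (0.27), the gene of a farnesyltransferase subunit. For *DHCR7* it was *RNF139* (0.11), a sterol-responsive ubiquitin ligase, and for *SQLE* it was *ACACA* (0.11), the acetyl-CoA carboxylase gene. *FDFT1* was nearest to *ACLY* (0.12), *FDPS* to *NSDHL* (0.23), *IDI1* to *ACAT2* (0.45), and *LSS* to *PDSS1* (0.15). No member had another member as its nearest gene. Among all tested genes, between 38 (*DHCR7*) and 1164 (*IDI1*) were nearer to the member than this pathway gene was. Nearest to the mean profile of the 8 members were *TMEM237* (0.03), *CBX5* (0.04), and *OSGIN2* (0.04).

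Another 50 genes of sterol and fatty acid metabolism, in 7 groups, were in the table, and 48 of them had enough counts to be tested. Of these 48, 2 were differentially expressed, both higher, and 46 were not. The share called higher was 4.17%, the same as over all tested genes. The median log2-fold change over the 48 was −0.05. *CYP51A1*, *ABCG1*, and *CH25H* were not analysed here.

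*EBP*, the sterol isomerase of the late pathway, was at 34.4 and 61.1 CPM in control and at 216, 149, and 145 CPM in knockout pools. *EBP* differed by 1.83 on the log2 scale (standard error 0.37, 95% interval 0.997 to 2.66, adjusted p = 0.0260 from edgeR). Without any 1 knockout pool the call of *EBP* was lost. Its adjusted p-values from edgeR were 0.0919, 0.0627, and 0.0700 without pools 1, 2, and 3, with log2-fold changes of 1.61, 1.94, and 1.96. Over all tested genes, the share called in these fits was 0.831%, 2.59%, and 1.44%, against 5.18% with all pools. The other 6 tested enzymes after squalene did not pass, from −1.02 for *HSD17B7* to 0.46 for *TM7SF2*, and the median of the 7 was −0.35.

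**Figure D3:**
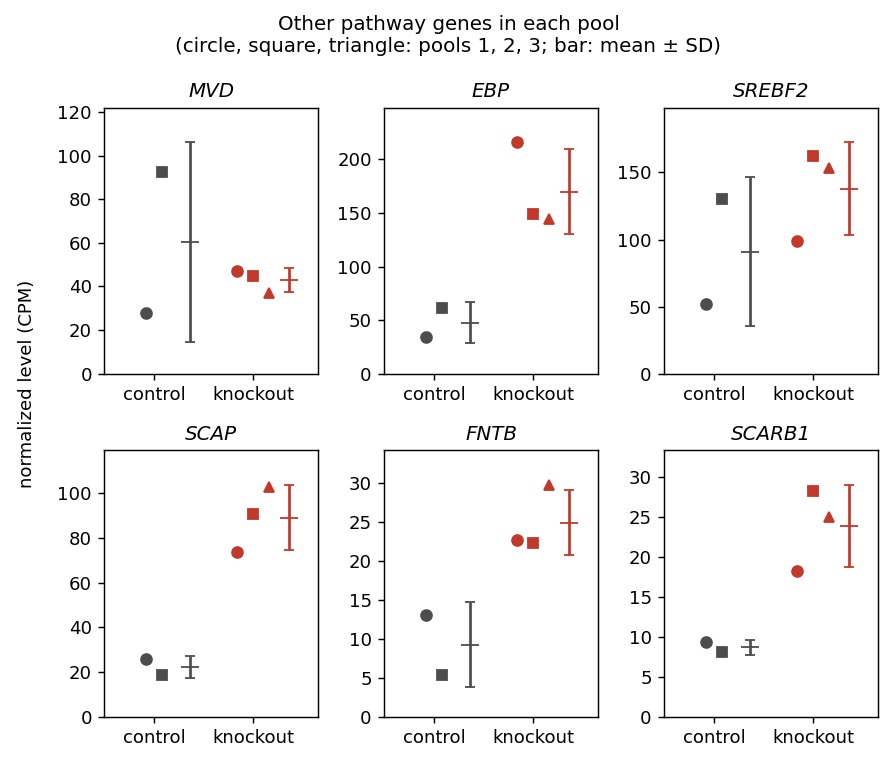
Normalized level in CPM (y axis, from 0, own scale per gene) of 6 further pathway genes in the 2 control pools (grey) and the 3 knockout pools (red), with symbols and bars as in the plot of the members' levels. For *EBP*, *SCAP*, *FNTB*, and *SCARB1* all knockout pools lie above both control pools, and for *MVD* and *SREBF2* the groups overlap.

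Among 11 genes that control SREBP, *SCAP* rose and the other 10 did not pass. *SCAP* was at 25.6 and 18.8 CPM in control and at 73.8, 90.6, and 103 CPM in knockout pools. It differed by 2.002 on the log2 scale (standard error 0.33, 95% interval 1.26 to 2.75, adjusted p = 0.0145 from edgeR). Its call was lost only without knockout pool 3 (adjusted p = 0.0530 from edgeR), with the difference at 1.93. The genes of the factors themselves were *SREBF2*, at 51.9 and 130 CPM in control and 98.6, 162, and 153 CPM in knockout pools, and *SREBF1*, at 9.07 and 18.8 CPM and at 28.9, 17.3, and 20.9 CPM. Both overlapped between groups, with log2-fold changes of 0.60 (95% interval −0.34 to 1.54, adjusted p = 0.429 from edgeR) and 0.68 (−0.24 to 1.61, adjusted p = 0.357). With control pool 1 left out these were 0.09 and 0.27, and with control pool 2 left out 1.44 and 1.33. The lowest value of the group was −0.83 for *MBTPS2*, a protease that cleaves SREBP.

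In the mevalonate segment, 4 more genes had 0 calls and a median of −0.36. *MVD*, which makes isopentenyl diphosphate, was at 27.8 and 92.7 CPM in control and at 47.1, 44.8, and 36.9 CPM in knockout pools, all of which lay between the controls. The highest value was 0.31 for *PMVK*, the phosphomevalonate kinase gene, and the lowest −0.98 for *ACAT2*, the cytosolic thiolase that begins the pathway. The 3′ end of *ACAT2* lies within *TCP1* on the opposite strand. In the isoprenoid branch, 0 of 6 genes passed, with *FNTB* highest at 1.43 (adjusted p = 0.0866 from edgeR, 0.0311 from DESeq2) and *GGPS1* lowest at −0.38. *FNTB* was at 2.22 without control pool 1 (adjusted p = 0.0235 from edgeR) and at 0.95 without control pool 2. The 3′ end of *FNTB* lies within *MAX* on the opposite strand, which had 155 and 91 counts in control and 1283, 877, and 1264 in knockout libraries. That of *GGPS1* lies within ENSG00000285053 on the same strand.

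For uptake and lysosomal release, 0 of 7 tested genes passed, with 6 positive differences. Their median of 0.77 was the value of *LIPA*, the lysosomal lipase gene, and 4 of the 7 (*NPC1*, *NPC2*, *LIPA*, and *STARD3*) act on cholesterol in lysosomes rather than on its uptake. *SCARB1*, the receptor of high-density lipoprotein, was at 9.38 and 8.05 CPM in control and at 18.3, 28.3, and 25.1 CPM in knockout pools. All knockout pools were above both control pools, and the log2-fold change of 1.45 (95% interval 0.63 to 2.27) narrowly missed the threshold (adjusted p = 0.0522 from edgeR, 0.0183 from DESeq2). The lowest value was −0.68 for *MYLIP*, a ubiquitin ligase.

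For storage, efflux, and the sterol-sensing LXR factors, 0 of 4 tested genes passed, from −1.68 for *ABCA1*, a cholesterol exporter with 7 and 9 counts in control libraries, to 0.00 for *SOAT1*, which esterifies cholesterol. Of 9 fatty acid genes driven mainly by SREBP-1, 0 passed, 7 were negative, and the median was −0.35. They ran from −0.82 for *ACSS2*, an acetyl-CoA synthetase, to 1.11 for *FADS2*, a desaturase. The span of *FADS2* overlaps that of *FEN1* on the same strand. *FEN1* had 81 and 33 counts in control and 1253, 434, and 624 in knockout libraries. *FADS2* was at 1.80 without control pool 1 (adjusted p = 0.0281 from edgeR) and at 0.68 without control pool 2. *SCD*, the stearoyl-CoA desaturase gene, was at 461 and 243 CPM in control and at 251, 295, and 284 CPM in knockout pools, between the controls.

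**Figure D4:**
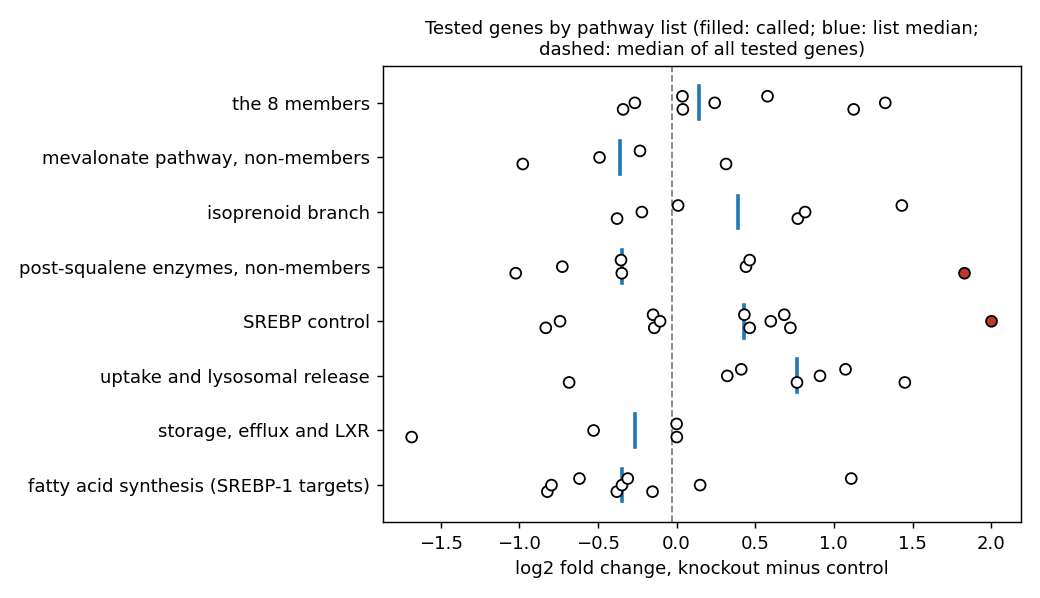
Log2-fold change, knockout minus control (x axis), of each tested gene, by gene group (rows). Filled points are differentially expressed, blue bars are group medians, and the dashed line is the median of all tested genes (−0.03). *EBP* and *SCAP* are the 2 filled points, and group medians run from −0.36 to 0.77.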

How the data were processed

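RNA-seq was analysed for 2 control and 3 *MTSS1* knockout pools of TF-1 cells. The authors prepared QuantSeq 3′ FWD libraries, aligned trimmed reads to GRCh38 with HISAT2 2.1.0, removed non-uniquely mapped reads with SAMtools 1.10, and deposited raw counts per Ensembl gene. The counting program, annotation release, and use of strand are not given in the sources used here. For their own calls the authors used DESeq2, with the same limits on adjusted p-value and log2-fold change as here. The DESeq2 fit run here is a separate one with a different number of calls. Its calls were not compared with the authors' list.

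The tests were run with edgeR 4.0.16 under R 4.3.3. The counts were filtered with filterByExpr (minimum count 10), TMM-normalized, and fitted with the quasi-likelihood test, with condition as the only term. P-values (Benjamini-Hochberg adjusted, 14391 genes tested) measure only the spread between these pools. Standard errors were derived from fold change and F statistic, and intervals from a t quantile of 2.24. Groups came from the sample titles. Symbols were matched for 27211 of 27328 genes, and positions come from GENCODE on GRCh38. DESeq2 1.42.0 and limma 3.58.1 (voom) were alternatives, with other normalizations and filters, thinned counts, a replicate block, and each library left out. Scripts were tested on simulated data with the same groups, where 200 genes were changed 4-fold. Of these, edgeR called 56.5%, DESeq2 65.5%, and limma-voom 44.5%. Beside them, edgeR called 8 unchanged genes, DESeq2 21, and limma-voom 4. A gene that was not called is thus not shown to be unchanged. Counting intervals cover counting error only, since reads carried no molecular identifiers, and 3 counts correspond to 0.389 to 0.938 CPM. The members and gene lists were chosen with earlier results of these data known. Named genes are the members, *MTSS1*, 4 fixed pathway genes, the pathway genes called, and the highest and lowest tested gene of each list. Genes named beyond this rule are given for overlap, likeness, or as markers, and *TM7SF2* was chosen after its value was seen. Some further genes of the pathway are not reported here and enter no list.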

Additional observations from a re-analysis of the deposited data

How the results depend on the processing

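*SQLE*, *DHCR7*, *HMGCS1*, *INSIG1*, *EBP*, *SCAP*, *SREBF1*, and *SREBF2* kept their direction under all 13 alternatives. With library size as the only scaling, the median log2-fold change of all tested genes went from −0.03 to −0.17 and that of the 8 members from 0.14 to 0.0056, and this turned *FDPS* to −0.061, *LSS* to −0.11, and *SOAT1* to −0.14. With RLE size factors, *SOAT1* was at −0.0116. With thinned counts, *FDPS* was at −0.088 and *SOAT1* at −0.10. The number of members called was 1 without a filter on low counts, 2 with DESeq2, 1 with limma-voom, and 2 with the replicate block. The number of other pathway genes called was 4 without a filter and 4 with DESeq2, and that of all genes 1374 (5.03% of those with an adjusted p-value) and 1286 (9.49%), against 5.18% in the reported fit. The median of the members was 0.29 without a filter, where that of all genes was 0.11, and it was 0.33 with at least 10 counts in every library (7 members), 0.30 with limma-voom, and 0.34 with the block. The cause was not tested.

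Leaving out 1 library at a time gave 0 to 1 members, 0 to 5 other pathway genes, and 111 to 1349 of all genes called (highest without control pool 1, lowest without knockout pool 1 for all genes and without knockout pool 3 for pathway genes). The count of all genes was 347 without knockout pool 2 and 191 without knockout pool 3. Where a control pool was left out, the lone control was assumed to vary like the knockout pools, so counts of calls from those fits are not given here. With any 1 of the 5 libraries left out, the median of the members ran from 0.13 to 0.60. Log2-fold changes ran from −0.85 to 0.46 for *IDI1*, −0.61 to 1.37 for *FDPS*, −0.10 to 0.75 for *FDFT1*, −0.13 to 0.28 for *LSS*, −1.04 to 0.16 for *MTSS1*, −1.10 to 0.65 for *MVD*, −0.71 to 0.20 for *SCD*, and −0.13 to 0.19 for *SOAT1*.

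Pools numbered 1 and 2 exist in either group, and nothing says that pools sharing a number were handled together. Across genes, the contrast of pool 1 with pool 2 in the control correlated at r = 0.17 with the same contrast in the knockout. Number 3 exists only in the knockout, so with the pool number as a replicate block the contrast rested on pools 1 and 2. Knockout pool 3, the lowest knockout pool for *HMGCS1* and *INSIG1*, thus did not enter it. In that fit *HMGCS1* (1.48, adjusted p = 0.0176 from edgeR) and *INSIG1* (1.39, adjusted p = 0.0288) were called. *LSS* was at −0.12, all genes called numbered 1094 (7.6%), and *EBP* and *SCAP* stayed called. The block fit is among the alternatives under which *HMGCS1* and *INSIG1* met the rule. With knockout pool 3 left out and no block, they were at 1.465 and 1.378 and were not called (adjusted p = 0.127 and 0.142 from edgeR).

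With 2 control libraries, *FDPS*, at 7 and 29 control counts, was the least precisely measured member.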
